A study of Mus musculus with 8 samples.

Results

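The genes described here are the histone genes and testis histone variants measured in mouse testis. They were chosen by name, as the genes of the deposited table whose symbol begins with Hist1h to Hist4h, H1f, H2af, H2bf, H3f or Hils. They number 80 of 19906 genes, with 11 of class H1, 25 of H2A, 18 of H2B, 13 of H3 and 13 of H4. Chromosome 13 holds 53 of them, chromosome 3 holds 9, and 63 of the 80 are named Hist for the clustered loci. RNA was taken from whole testes of mice aged 2 months, 4 Tmem232-/- and 4 Tmem232+/+, with 1 library per mouse. The libraries are called KO and WT below after these genotype labels, with their replicate number. Tmem232 codes for a transmembrane protein of the testis, and the study asked what its loss does to the sperm flagellum and to male fertility. The knockout was made in C57BL/6 mice with CRISPR-Cas9 and lacks a fragment between introns 4 and 8 in every cell of the body. No other allele and no treatment is given for either genotype. A whole testis mixes germ cells of all stages with somatic cells, so that fewer cells of a type and less RNA per cell cannot be told apart.

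Histones are the proteins around which nuclear DNA is wound. H2A, H2B, H3 and H4 form the core of the nucleosome, and H1 binds the linker DNA between cores. Replication-dependent histone genes lie in clusters, are transcribed while DNA is replicated, and their mRNAs usually end after a stem-loop in place of a poly(A) tail. Replacement variants such as H3f3a, H3f3b and H2afz are made throughout the cell cycle from polyadenylated mRNAs. Male germ cells use further variants. Hist1h1t, Hist1h2aa and Hist1h2ba are made in spermatocytes, whereas H1fnt (also called H1T2) and Hils1 are linker histones of spermatids, the cells that later exchange histones for transition proteins and protamines. How RNA was selected before the libraries were made is not given in the sources used here beyond the name of the kit.

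Total counts ranged from 15428421 to 16350871 per library, and the histone genes held between 0.205% and 0.247% of them. Levels of 1 gene are given below as counts per 1000000 counts after TMM scaling (CPM), and levels of different genes are compared only as the authors' FPKM, which is per kilobase of transcript. Tmem232 itself was not lower in the KO libraries, with 131 ± 11.8 CPM against 109 ± 2.08 CPM in WT (SD, n = 4 each) and a log2 fold change of 0.27 (edgeR, adjusted p = 0.0335). Over the alternatives this adjusted p ranged from 0.0028 to 0.114. The deletion removes only part of the gene, so that a count over the whole gene may not check the genotype, and directions below are given by the labels.

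The transcripts of spermatid genes differed between the labels as well, and their values are given here because several histone genes belong to the same cells. Of 12 markers of round spermatids, 10 were higher and 0 lower in KO at an adjusted p under 0.05, and 12 were higher and 0 lower at an unadjusted p under 0.05 in edgeR. DESeq2 called 11 of these markers higher and limma-voom 10. Their summed level was 1163 to 1451 CPM, against 621 to 845 CPM in WT. Of 13 markers of elongating spermatids, 12 were higher and 0 lower by all of these tools, with summed levels of 3409 to 4439 CPM against 2009 to 2420 CPM. Their defining genes Prm1 and Tnp1, which code for a protamine and a transition protein, had means of 95.9 against 4.55 CPM and of 69.2 against 5.95 CPM. No marker of either list was at 0 in all libraries. Over all genes tested, the shares in edgeR were 10.3% higher and 1.46% lower at an adjusted p under 0.05. At an unadjusted p under 0.05 they were 14.6% and 10.5%. Of the somatic lists, edgeR called 0 of 10 Sertoli cell markers (0 higher and 1 lower at an unadjusted p under 0.05) and 0 of 8 Leydig cell markers (5 higher and 0 lower), where DESeq2 called 2 and limma-voom 1 higher, and 2 of 5 peritubular myoid cell markers were lower. A list of 6 epididymis markers had 1 gene that could be tested, Crisp1, which edgeR did not call. The summed level of this list was 6.12, 0.25, 0.063 and 1.11 CPM in KO1 to KO4. In WT1 to WT4 it was 28.16, 0.061, 10.96 and 0.12 CPM. Crisp1 alone had 27.04 CPM in WT1, 9.94 CPM in WT3 and 5.52 CPM in KO1. The part of spermatid, somatic and epididymal RNA in the results below was not tested.

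Most of the histone signal came from few genes, and most histone genes had low FPKM (the plot of levels by class). The highest mean FPKM over the 8 libraries was that of H3f3a at 506, followed by H3f3b at 411, which code for the same replacement histone of class H3. H2afz, a replacement H2A found around gene starts, followed at 345, and Hist2h2aa1, a gene of a chromosome 3 cluster, at 234. Hils1 came next at 114, from means of 166 in KO and 60.7 in WT. In WT it lay below H2afy at 82.2 and H2afx at 79.4. FPKM of H3f3a ranged from 452 to 587 and did not overlap with H3f3b at 387 to 429, whereas H2afz at 294 to 406 overlapped with H3f3b. Over all libraries these 5 genes reached a mean of 100 FPKM (in WT the first 4, without Hils1), 20 reached 10 FPKM, and 45 of the 80 were under 1 FPKM, 42 of them named Hist. In counts, 36 genes had at most 3 in every library, and 40 had at least 1 count in every library.

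**Figure D1:**
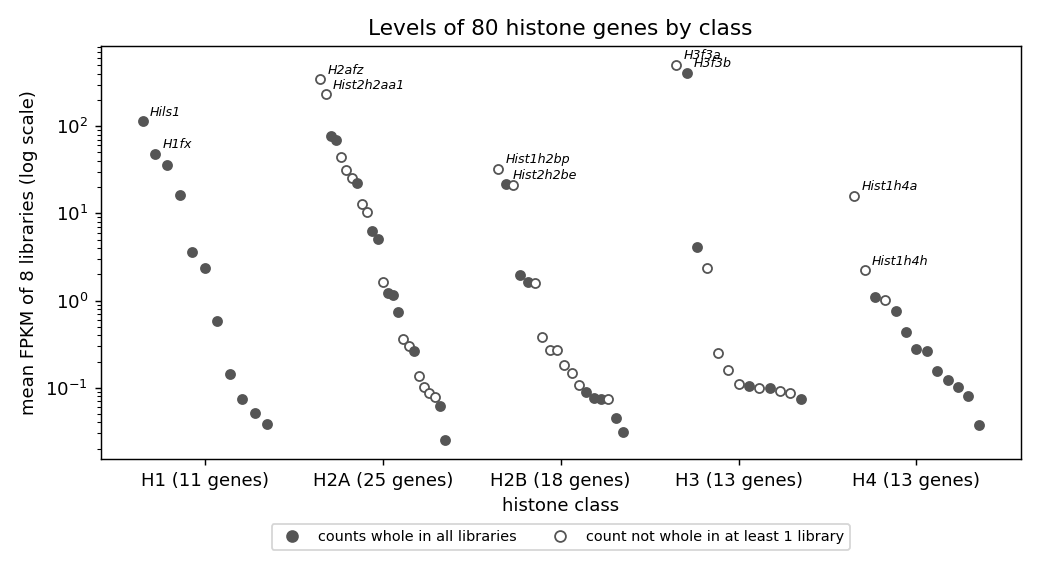
Mean FPKM over 8 libraries (log scale) of the 80 histone genes by class, each point a gene. Open points mark genes with a count that is not whole in at least 1 library. Class H3 is carried by H3f3a at 506 and H3f3b at 411 FPKM, whereas the highest H4 gene, Hist1h4a, has 15.9.

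Summed over a class, FPKM was 290 ± 39.5 (SD, n = 4) in KO and 153 ± 20.7 (SD, n = 4) in WT for H1. The sums of H2A were 849 ± 93.3 and 930 ± 118, those of H2B 87.4 ± 8.96 and 76.4 ± 11.9, those of H3 908 ± 54.6 and 943 ± 53.8, and those of H4 28.4 ± 6.97 and 16.7 ± 2.17, in the same order of labels. Only in H1 and H4 do the means stand apart by more than both SDs, and each of these sums is led by genes described below.

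Of the 80 histone genes, 28 passed edgeR's filter on low counts and 52 did not. Of the 28, 26 passed in each label taken alone, while Hist1h3a passed through the KO libraries alone and Hist1h2ag through libraries of both. At an adjusted p under 0.05, 3 of the 28 were higher in KO (10.7%), against 10.3% of the 15787 genes tested. These were H1fnt, Hils1 and Hist1h4a. H2afx alone was lower (3.57% of the 28, against 1.46% of all genes tested). At an unadjusted p under 0.05, 5 were higher and 4 lower, which is 17.9% and 14.3% of the 28 against 14.6% and 10.5% of all genes tested. Groups did not overlap for the same 3 higher genes and for H2afx, while 11.8% and 6.88% of all genes were separated upwards and downwards. The median log2 fold change of the 28 was -0.10, beside -0.05 over all genes tested, and 17 of the 28 lay below 0 (60.7%, against 60.8% of all genes). With single libraries left out, the median of the tested histone genes lay between -0.15 (without WT4) and -0.0095 (without WT3). That of all genes tested lay between -0.056 (without KO3) and -0.0067 (without WT1). As a group the tested histone genes were thus called about as often as other genes. The 3 that rose had log2 fold changes over 1, whereas the other 25 lay between -0.39 and 0.96.

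**Figure D2:**
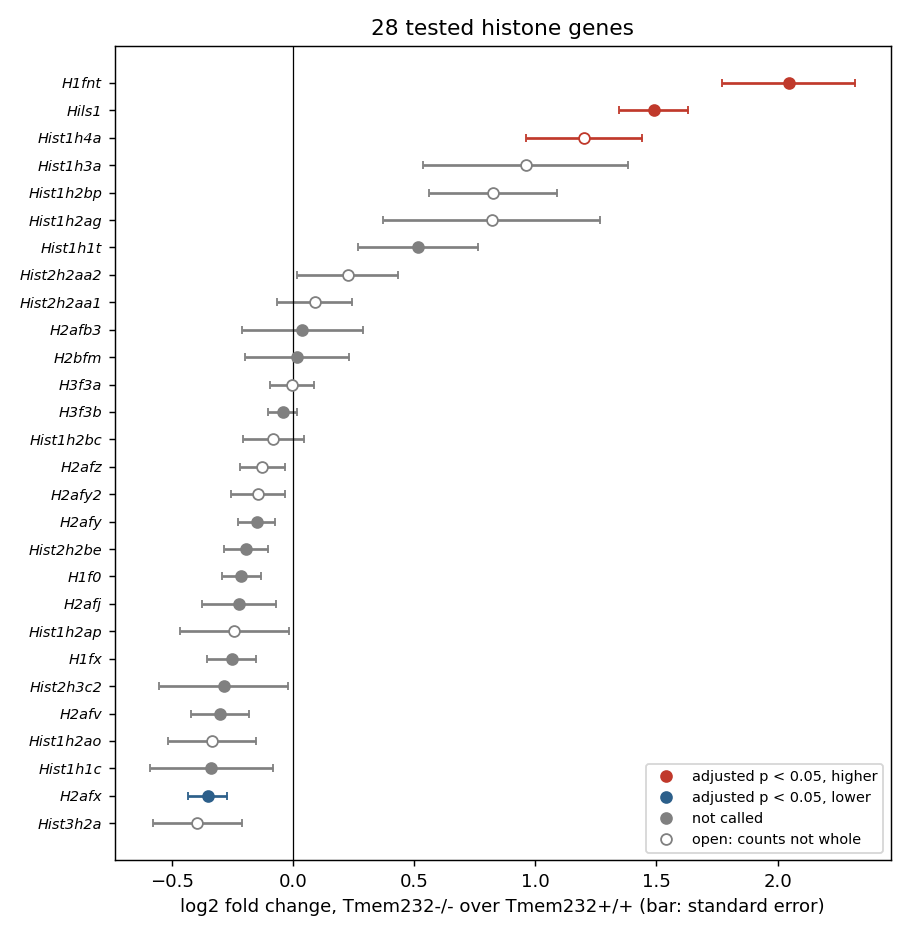
Log2 fold change of the KO over the WT libraries with its standard error for the 28 tested histone genes. H1fnt, Hils1 and Hist1h4a (red) have an adjusted p under 0.05 and are higher, H2afx (blue) is lower, and open points mark genes with counts that are not whole.

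Among the linker histones, the pair made in spermatids rose and the somatic ones did not pass the test. H1fnt (Entrez ID 70069, GRCm38 chromosome 15, 98255982 to 98257307) codes for a linker histone placed at one pole of the spermatid nucleus. KO1 to KO4 had 78.9, 69.0, 47.2 and 75.5 CPM, and WT1 to WT4 had 14.5, 9.08, 27.4 and 14.7 CPM. The lowest of the former thus lay above the highest of the latter, and the libraries closest to each other were KO3 and WT3. The means were 67.7 ± 14.2 and 16.4 ± 7.78 (SD, n = 4 each), a 4.13-fold difference with a log2 fold change of 2.05 (standard error 0.275, edgeR's adjusted p = 0.000368). By an exact two-sided permutation test of CPM, p was 0.0286, the smallest that 4 mice against 4 allow.

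Hils1 (Entrez ID 54388, chromosome 11, 94967593 to 94968456), a linker histone of elongating spermatids, had the highest mean FPKM of the H1 genes in both labels, although in WT2 H1fx exceeded it (49.2 against 45.3 FPKM). Its levels were 125, 116, 95.5 and 129 CPM in KO1 to KO4 and 41.0, 30.3, 49.0 and 45.5 CPM in WT. No library of one label reached the range of the other. The means of 116 ± 14.96 and 41.4 ± 8.14 CPM (SD, n = 4 each) gave a 2.81-fold difference, with a log2 fold change of 1.49 (standard error 0.142, edgeR's adjusted p = 4.75e-05). Hils1 and H1fnt together made up 78.1%, 78.4%, 75.2% and 77.7% of the FPKM of all 11 linker histone genes in KO1 to KO4, and 47.5%, 41.5%, 54.1% and 51.2% in WT (the plot of linker histone genes per library).

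**Figure D3:**
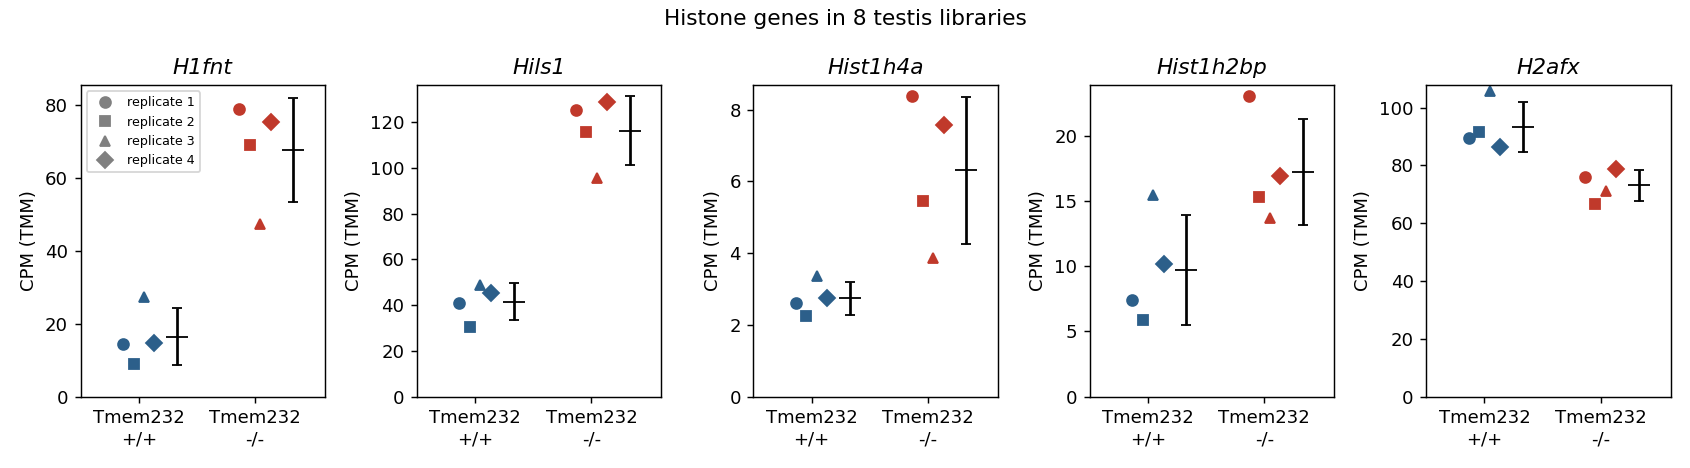
CPM after TMM scaling in each of the 8 libraries for the 4 called histone genes and Hist1h2bp, with the mean and SD of each label in black. H1fnt, Hils1 and Hist1h4a lie higher in all 4 KO libraries, H2afx lies lower in all 4, and Hist1h2bp overlaps through WT3 at 15.5 CPM.

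**Figure D4:**
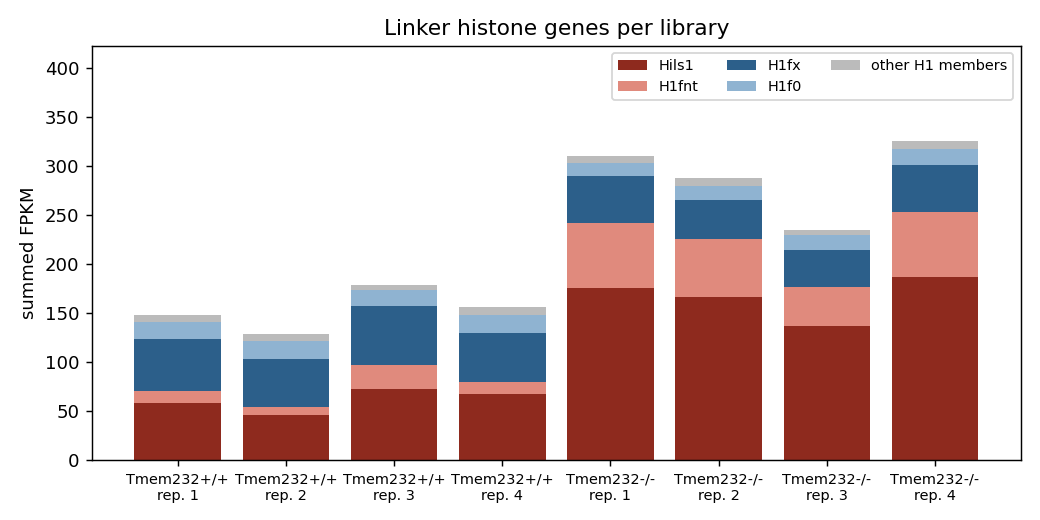
FPKM of the 11 linker histone genes stacked for each library. Hils1 and H1fnt (red shades) hold 75.2% to 78.4% of the sum in KO and 41.5% to 54.1% in the others, and H1fx and H1f0 (blue shades) follow.

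Among the WT libraries, WT2 was the lowest and WT3 the highest for H1fnt, for Hils1 and for the summed markers of round spermatids (621 and 845 CPM) and elongating spermatids (2009 and 2420 CPM). KO3 was the lowest KO library for both genes and both sums (1163 and 3409 CPM). The highest KO library was KO1 for H1fnt and both sums, and KO4 for Hils1.

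The other tested linker histone genes were not called. H1f0, the replacement linker histone of cells that no longer divide, had 31.8 ± 2.32 and 36.9 ± 2.54 CPM in KO and WT (SD, n = 4 each), a log2 fold change of -0.21 (edgeR, adjusted p = 0.127). H1fx, another replacement linker histone, had means of 39.2 ± 4.66 and 46.7 ± 4.54 CPM, and its log2 fold change was -0.25 (edgeR, adjusted p = 0.142). Both were among the genes with an unadjusted p under 0.05, at 0.0229 and 0.0276 in edgeR. Hist1h1t, the linker histone of spermatocytes, was low, with 2.00, 1.57, 1.20 and 1.54 CPM in KO1 to KO4 and 0.748, 1.09, 1.14 and 1.41 CPM in WT. These ranges overlapped, and its log2 fold change of 0.52 (standard error 0.248) had an adjusted p of 0.225 in edgeR. Hist1h1c was at 1.77 ± 0.394 and 2.24 ± 0.622 CPM (edgeR, adjusted p = 0.442). H1foo, the linker histone of oocytes, had 9 counts in all, spread over 3 libraries, and was not tested.

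The 250 bases before the RefSeq start of H1fnt, Hils1 and Hist1h4a are printed here because these 3 genes rose together. Letters searched on both strands were TGACGTCA (the cAMP response element, bound by CREB and CREM), ATTTGCAT (the octamer of H2B promoters), CCAAT and TATAAA, and the matches in the printed stretches are in capitals and do not overlap. The sequences are RefSeq's for GRCm38.p6, 5′ to 3′ on the strand of the gene: H1fnt at chr15:98257308-98257557 on the minus strand, Hils1 at chr11:94967343-94967592 on the plus strand and Hist1h4a at chr13:23761250-23761499 on the minus strand.
H1fnt: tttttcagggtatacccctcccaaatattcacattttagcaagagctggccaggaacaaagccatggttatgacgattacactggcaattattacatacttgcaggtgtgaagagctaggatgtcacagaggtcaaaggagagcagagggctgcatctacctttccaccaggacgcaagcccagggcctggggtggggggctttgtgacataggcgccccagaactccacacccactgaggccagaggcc
Hils1: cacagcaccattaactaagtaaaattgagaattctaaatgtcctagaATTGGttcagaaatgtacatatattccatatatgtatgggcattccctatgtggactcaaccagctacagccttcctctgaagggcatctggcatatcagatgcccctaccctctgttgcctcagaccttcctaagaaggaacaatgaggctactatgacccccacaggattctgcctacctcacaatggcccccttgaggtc
Hist1h4a: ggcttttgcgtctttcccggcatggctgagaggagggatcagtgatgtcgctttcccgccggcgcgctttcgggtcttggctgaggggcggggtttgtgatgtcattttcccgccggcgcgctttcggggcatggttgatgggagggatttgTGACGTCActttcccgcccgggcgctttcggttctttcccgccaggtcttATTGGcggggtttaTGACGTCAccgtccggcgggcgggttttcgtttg
H1fnt holds none of the 4 motifs, and Hils1 holds 1 CCAAT in the reverse direction, 203 bases before the start. Hist1h4a holds the cAMP response element at 98 and 34 bases before the start, a reversed CCAAT at 48 bases before it, and TATAAA at 42 bases after it, outside the printed stretch. Promoter windows were found for 74 of the 80 genes by Entrez ID, as 75 windows of 300 bases. The cAMP response element was in 4 of these 75 and in 1.79% of all 32851 windows. Its other holders were Hist1h2ag, Hist1h2bj and Hist1h4h, of which only Hist1h2ag was tested. The octamer was in 15 of the 75 (20%, against 1.74% of all windows), 7 of H2A genes and 7 of H2B genes. Windows of head-to-head pairs, such as Hist1h2ag and Hist1h2bj or Hist1h2aa and Hist1h2ba, overlap, so that a match can count for both genes. CCAAT was in 81.3% of the histone windows and 37.4% of all, and TATAAA in 45.3% and 13.6%. Matches are letters only and were not tested for binding.

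Class H2A held the only gene that fell. H2afx (Entrez ID 15270, chromosome 9, 44334715 to 44336077) codes for the variant that is phosphorylated at DNA breaks and, in spermatocytes, on the silenced sex chromosomes. It had 76.1, 66.7, 71.2 and 78.8 CPM in KO1 to KO4 and 89.5, 91.7, 106 and 86.4 CPM in WT. All KO libraries were thus below all others, by a smaller margin than in H1fnt and Hils1. Means of 73.2 ± 5.35 and 93.4 ± 8.62 CPM (SD, n = 4 each) gave a log2 fold change of -0.35 ± 0.082 (standard error, edgeR adjusted p = 0.0148). Without KO2 (log2 fold change -0.31, edgeR's adjusted p = 0.0558) and without WT1 (-0.33, adjusted p = 0.05001) it was no longer called, with folds about as large. The fold was smallest without WT3 (-0.26, edgeR's adjusted p = 0.0347), where the call remained. Spermatocyte markers were mixed, with 1 of 12 higher (Pgk2) and 2 lower (Dmc1 and Tex101) and summed levels of 5643 to 6449 CPM against 5834 to 6188 CPM. Over all genes tested, edgeR called 10.3% higher and 1.46% lower at an adjusted p under 0.05. Of 12 spermatogonial markers 4 were lower (Sall4, Stra8, Uchl1 and Sohlh1), at 286 to 314 CPM against 336 to 367 CPM in sum. The part of these cells in the lower H2afx was not tested.

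No other H2A gene was called. H2afz had 296 ± 29.8 CPM in KO and 323 ± 31.6 CPM in the others (SD, n = 4 each), with a log2 fold change of -0.13 (standard error 0.093, edgeR's adjusted p = 0.432). H2afv, its close relative, was at 28.7 ± 5.12 and 35.4 ± 3.12 CPM, a log2 fold change of -0.30 (edgeR, adjusted p = 0.147) that passed the test only without KO4 (-0.41, adjusted p = 0.0291). The macroH2A genes H2afy and H2afy2, whose proteins carry a large extra domain, had log2 fold changes of -0.15 and -0.14 (edgeR, adjusted p = 0.257 and 0.451). For H2afj the value was -0.22 (edgeR, adjusted p = 0.394). H2afb3, one of the short H2A variants of the testis, had 3.01 ± 0.862 and 2.93 ± 0.792 CPM, and its log2 fold change was 0.04 (standard error 0.251). H2afb1 had 6 counts in all libraries together and was not tested.

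The abundant clustered H2A genes also stayed within their replicate spread. Hist2h2aa1 (Entrez ID 15267, chromosome 3, 96243550 to 96246380) had 109.9, 85.7, 76.7 and 97.4 CPM in KO1 to KO4 and 88.4, 67.6, 113 and 77.9 CPM in WT. Both its highest and its lowest library were WT, and the log2 fold change was 0.09 (standard error 0.154, edgeR's adjusted p = 0.75). Hist2h2aa2 stood at 14.2 ± 3.65 and 12.1 ± 3.07 CPM. Hist1h2ap and Hist1h2ao, near-identical genes of the chromosome 13 cluster, had log2 fold changes of -0.24 and -0.33 (edgeR, adjusted p = 0.538 and 0.285). Hist3h2a had the lowest value of all tested histone genes, -0.39 with a standard error of 0.184 (edgeR, adjusted p = 0.211). Hist1h2ag was near the limit of counting, at 0.635 ± 0.217 and 0.356 ± 0.203 CPM.

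The testis pair Hist1h2aa and Hist1h2ba, which code for the H2A and H2B that replace the somatic kinds in spermatocytes, was barely counted. Hist1h2aa (chromosome 13, 23934462 to 23934913) had 2, 4, 4 and 4 counts in KO1 to KO4 and 6, 8, 12 and 3 in WT. Hist1h2ba (chromosome 13, 23933725 to 23934156) had 2, 8, 6 and 6.85 counts, and 13.8, 5, 6 and 5 counts. Neither passed the filter, and both genes' ranges overlapped between the labels. The pair stands head to head with 305 bases between the gene models. Their promoter windows share 220 bases, and that of Hist1h2aa holds 1 octamer, 4 CCAAT and 2 TATAAA.

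Of the other H2B genes, 4 were tested and 0 called by edgeR at an adjusted p under 0.05, and 1 had an unadjusted p under 0.05. The shares over all genes tested were 10.3% higher and 1.46% lower at the former threshold, and 14.6% and 10.5% at the latter. Hist1h2bp was the closest to a call and was singled out after its values were seen. It had 23.0, 15.3, 13.7 and 16.9 CPM in KO1 to KO4 and 7.41, 5.87, 15.5 and 10.1 CPM in WT, so that WT3 lay among the KO libraries. Its log2 fold change was 0.83 (standard error 0.264, edgeR's adjusted p = 0.0701, unadjusted p = 0.00951). DESeq2 and limma-voom called it, at adjusted p of 0.0182 and 0.0453, and so did edgeR without WT3 (1.17, adjusted p = 0.0020). Over all alternatives run the adjusted p ranged up to 0.188. The gene model of Hist1h2bp deposited with the counts spans 104122 bases of the cluster with 12 other histone genes inside it. The counts of Hist1h2bp were not whole in any library. Hist2h2be and Hist1h2bc, with means of 50.1 and 11.3 CPM in KO, had log2 fold changes of -0.19 and -0.08 (edgeR, adjusted p = 0.21 and 0.731). H2bfm, on the X chromosome, had 1.46 ± 0.156 and 1.44 ± 0.309 CPM. Hist3h2ba was not tested, with 10, 10, 3 and 9 counts against 15, 11, 7 and 8.

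H3 was carried by its replacement genes, and neither was called. H3f3a had 517, 441, 418 and 471 CPM in KO1 to KO4 and 458, 419, 525 and 448 CPM in WT. The ranges overlapped, with the highest library in WT and the lowest in KO, at a log2 fold change of -0.003 (standard error 0.089, edgeR's adjusted p = 0.988). H3f3b was at 792, 717, 737 and 714 CPM, and 782, 753, 766 and 747 CPM, with a log2 fold change of -0.04 (standard error 0.062, edgeR's adjusted p = 0.707). Together these genes held between 99.0% and 99.4% of the FPKM of class H3 in every library. Hist1h3a, a clustered gene that passed the filter through the KO libraries alone, had 1.04 ± 0.35 and 0.529 ± 0.278 CPM. Its log2 fold change was 0.96 with a standard error of 0.423 (edgeR, adjusted p = 0.186). Hist2h3c2 had a value of -0.29 (edgeR, adjusted p = 0.538). H3f3c had 5.39 counts over all libraries and was not tested.

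Only 1 H4 gene was counted well enough to test, and it rose. Hist1h4a (Entrez ID 326619, chromosome 13, 23760795 to 23761249) codes for the same core histone as the other H4 genes of the clusters. It had 8.39, 5.46, 3.86 and 7.56 CPM in KO1 to KO4 and 2.62, 2.24, 3.36 and 2.76 CPM in WT. The groups did not overlap, although KO3 and WT3 lay close to each other. Means of 6.32 ± 2.05 and 2.74 ± 0.464 CPM (SD, n = 4 each) gave a log2 fold change of 1.20 (standard error 0.24, edgeR's adjusted p = 0.00559). As with H1fnt and Hils1, WT3 was the highest and WT2 the lowest of their group, and KO3 the lowest of its own. Other genes share 40.4% of its words of 50 bases, as described below, and its counts were not whole in 3 libraries. None of the 12 other H4 genes passed the filter, and the highest of them, Hist1h4h, had 11, 12.1, 8.99 and 11.1 counts against 7, 9, 8 and 8.

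A list of further histone variants, whose symbols do not begin with the names above, was examined beside the others. They are the short H2A variants H2al1, H2al2 and H2al3, the testis H2B 1700024P04Rik (synonym Subh2bv), the testis H3 Gm12260 (synonym H3t), and Cenpa, the H3 variant of centromeres. The table holds 15 of these genes, 12 of which were tested. Of the 12, 4 (H2al1k, H2al1m, H2al1n and H2al3) passed the filter on low counts through the KO libraries alone and so could only be tested because they were high there. Of the other 8, 6 were higher and 0 lower in edgeR at an adjusted p under 0.05, against 10.3% and 1.46% of all genes tested, and their median log2 fold change was 1.48. These 6 were H2al1a, H2al1b, H2al1e, H2al1g, H2al2a and 1700024P04Rik. The 4 were called higher as well, but the filter admitted them by their KO level, so their calls are not counted here.

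H2al2a (chromosome 2, 17996417 to 17996958), which takes part in the loading of transition proteins, had 17.2, 17.1, 9.55 and 18.7 CPM in KO1 to KO4. WT1 to WT4 had 1.87, 0.908, 5.38 and 1.90 CPM. Its log2 fold change was 2.64 (standard error 0.398, edgeR's adjusted p = 0.000831), and no library of either label lay in the range of the other. The H2B variant 1700024P04Rik had 24.5, 15.1, 11.8 and 21.3 CPM against 4.80, 2.30, 6.84 and 5.10 CPM, with a value of 1.93 (edgeR, adjusted p = 0.000931). H2al3, which passed the filter through the KO libraries alone, was at 5.95 ± 1.38 and 0.841 ± 0.551 CPM (SD, n = 4 each). Over the 6 called genes that passed the filter in both labels the log2 fold change lay between 1.21 and 2.64, and the groups overlapped in 1 of them, H2al1g. Cenpa (-0.16, adjusted p = 0.491) and Gm12260 (0.60, adjusted p = 0.168) were not called. Summed over the list, levels were 63.3 to 107 CPM in KO and 20.4 to 42.7 CPM in the others, beside the spermatid marker sums above, whose part was not tested. Counts were not whole for 6 of the 15 genes, all of them X-linked copies of H2al1, and how reads were divided among these copies is uncertain. H2al1n, H2al2a, H2al3 and 1700024P04Rik were whole in all libraries.

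**Figure D5:**
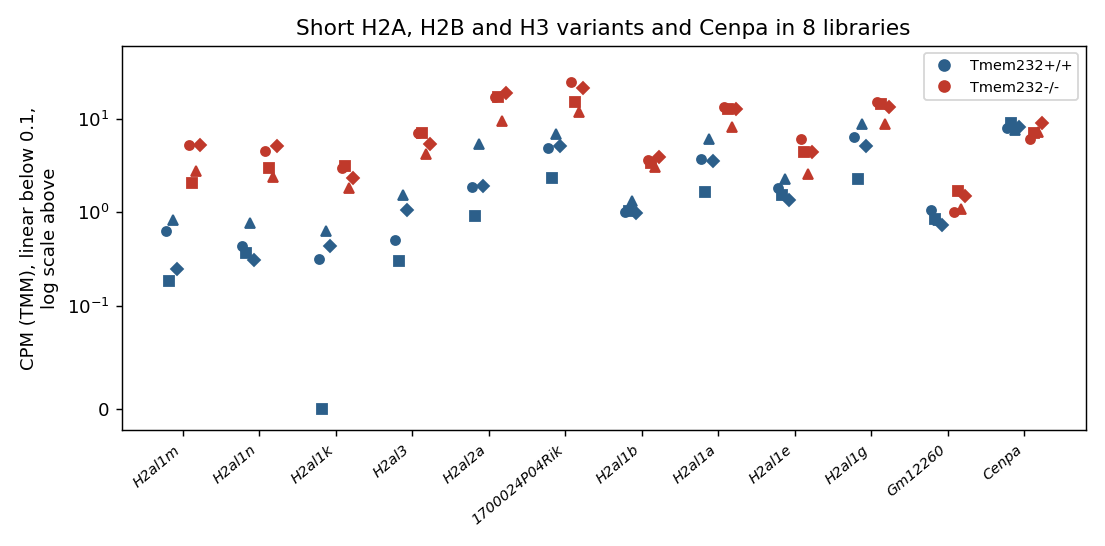
CPM after TMM scaling in the 8 libraries (log scale above 0.1) of the 12 tested histone variants whose symbols lie outside the naming rule, with marker shapes for replicates 1 to 4 as in the plot of called genes. The 9 H2al genes and 1700024P04Rik are higher in KO (red), H2al1g with overlap, while Cenpa and Gm12260 overlap and are not called. H2al1k, H2al1m, H2al1n and H2al3 passed the filter on low counts through the KO libraries alone.

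A list of 49 genes holds those of histone mRNA processing (such as Slbp, which binds the stem-loop), of histone gene transcription (Npat) and of histone chaperones (Nasp, Asf1a, Hira). All 49 were tested, and 1 was higher and 1 lower at an adjusted p under 0.05 (4 and 8 at an unadjusted p under 0.05) in edgeR. Of all genes tested, 10.3% were higher and 1.46% lower at an adjusted p under 0.05, and 14.6% and 10.5% at an unadjusted one. Cstf2, a subunit of the cleavage stimulation factor, had means of 62.0 and 46.8 CPM and a log2 fold change of 0.41 (edgeR, adjusted p = 0.0014). Mcm2, a subunit of the replicative helicase that also binds H3 and H4, had means of 27.2 and 32.5 CPM and a value of -0.25 (edgeR, adjusted p = 0.0439). The median of the list was -0.07. Slbp was at -0.09 (edgeR, adjusted p = 0.585) and Nasp at 0.02 (edgeR, adjusted p = 0.925). Of 18 genes of S phase, in which the clustered histone genes are used, 0 were called by edgeR, DESeq2 or limma-voom, and 0 were higher and 4 lower at an unadjusted p under 0.05 in edgeR.

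Most histone counts came from genes without an annotated stem-loop. The histone 3′ stem-loop, 16 letters of which the variable stem bases could be any base, was searched in the sense strand of GENCODE transcripts and found in 44 of the 80 genes and in 79 of 141652 transcripts of other genes (0.0558%). Examples from genes with counts are printed 5′ to 3′ with the 16 letters in capitals and 5 bases on either side, to show how alike they are in a replacement variant, a spermatocyte linker histone and clustered core histones. They lie in GRCm38 at chr9:44335235-44335260 for H2afx, chr13:23696520-23696545 for Hist1h1t, chr3:96246027-96246052 for Hist2h2aa1 and chr13:21787918-21787943 for Hist1h2bp, all on the plus strand.
H2afx: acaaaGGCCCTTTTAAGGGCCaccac
Hist1h1t: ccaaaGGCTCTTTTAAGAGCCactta
Hist2h2aa1: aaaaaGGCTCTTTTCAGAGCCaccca
Hist1h2bp: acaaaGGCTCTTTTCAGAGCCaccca
In 21 genes every annotated transcript with these letters ended within 100 bases of them, a limit chosen after the distances were seen. These 21 held 6.30% of the histone counts and, per length, 17.6% of the summed mean FPKM, most of both from Hist2h2aa1. Of the 7 tested, edgeR called 0 at an adjusted p under 0.05, where 10.3% of all genes tested were higher and 1.46% lower. At an unadjusted p under 0.05, where 14.6% of all genes tested were higher and 10.5% lower, Hist1h2bp was higher. So was Hist1h3a, which passed the filter through the KO libraries alone. DESeq2 and limma-voom called Hist1h2bp alone of the 7. A longer transcript was annotated for 23 genes, which held 4.32% of the counts and 4.69% of the FPKM. They include H2afx, which is known to make mRNAs of both kinds and whose annotated transcript goes on for 822 bases past the stem-loop, and Hist1h1t with 185 bases. The 36 genes without the letters held 89.4% of the counts and 77.7% of the FPKM, and include H3f3a, H3f3b, H2afz and the 3 genes that rose. For 16 of the 36, Hist1h2aa and Hist1h2ba among them, the annotation has at most 20 bases after the coding part, so that a stem-loop could not be seen there. The kit's way of selecting RNA would bear on genes without a poly(A) tail, and its part in these levels was not tested.

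Many histone genes had counts that are not whole numbers, as arise when a read is divided among several genes. Of the 80, 35 (43.8%) had such a count in at least 1 library, against 2974 of the 19906 genes in the table (14.9%), taking a difference of over 1e-06 from a whole number. These 35 held 42.6% of the histone counts when all counts of each gene are taken, not the divided reads alone. H3f3a with 58950 and H2afz with 39442 counts held the most of this share. H2afz was not whole in only 2 libraries, by at most 0.18 of a count. None of the 11 H1 genes was among the 35, against 14 of 25 in H2A, 10 of 18 in H2B, 8 of 13 in H3 and 3 of 13 in H4. All but 4 were named Hist, the exceptions being H2afy2, H2afz, H3f3a and H3f3c.

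In 9 genes no library had a whole count, namely H3f3a, Hist2h2aa1, Hist2h2aa2, H2afy2, Hist1h2bp, Hist1h2ao, Hist3h2a, Hist1h2bq and Hist1h2br. Hist1h2ap, Hist1h2ag and Hist1h2ad were not whole in 7 libraries, Hist1h2bj in 6, and Hist1h2ai and H3f3c in 5. Hist1h2bc, Hist1h2ab and Hist1h2ac followed with 4 libraries, and Hist1h4a, Hist1h4h, Hist1h2ae and Hist1h2bg with 3. H2afz, Hist1h2ba, Hist1h3i, Hist1h2ah and Hist1h2bk were not whole in 2 libraries. The last 8, in 1 library each, were Hist1h3a, Hist1h2be, Hist1h4b, Hist1h3c, Hist1h2bb, Hist1h3d, Hist1h3h and Hist1h3b. Of the 35 genes 13 were tested, and Hist1h4a alone was called, where 10.3% of all genes tested were higher and 1.46% lower.

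The pair Hist1h2bq and Hist1h2br had the same counts in every library, 3.52, 5.52, 6.59 and 10.01 in KO1 to KO4 and 7.63, 5.06, 7.56 and 8.05 in WT. They lie apart on chromosome 13, at 21806412 to 21810199 and 21833743 to 21837530, and 97.3% of the 50-base words of Hist1h2bq are also in Hist1h2br. The 2 equal rows therefore give 1 measurement and not 2. Over the 35 genes with counts that are not whole, all shared at least 1 word of 50 bases with another gene, with a median of 58.0% of their words (14.1% to 100%). Among the 45 whole genes 36 shared a word, with a median of 22.1% (0% to 100%). H1fnt, Hils1 and Hist1h1t shared 0% of theirs, and H2afx 9.66%. Every word of Hist2h2aa1 and Hist2h2aa2 was found elsewhere in the annotation, as were 93.5% of those of Hist1h2ao and 93.1% of those of Hist1h2ap, which share them with each other. Levels of these genes may depend on how shared reads were divided, which is not given, whereas the counts of H1fnt, Hils1 and H2afx were whole in all 8 libraries.

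Restricted to the 15 tested genes with whole counts, the median log2 fold change was -0.19 with 2 higher and 1 lower, and among the 13 others it was -0.003 with 1 higher. Over all genes tested the median was -0.05, with 10.3% higher and 1.46% lower. The 14 tested genes named Hist had a median of 0.01 and the 14 others -0.13. Each of these groups ranged from -0.35 or lower to 1.20 or higher.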

How the data were processed

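Whole-testis RNA of 8 mice was sequenced in pairs of reads. According to the study's methods and the submitters' processing notes, the authors aligned the reads against GRCm38.p6 (HISAT, Bowtie2) and obtained gene counts from StringTie and featureCounts. Versions, strand setting and the treatment of reads that map to several genes are not given in the sources used here. The deposited values are estimated counts, not normalized by the authors, and FPKM, which the authors scaled per kilobase of transcript and by library total. The deposited columns of fold changes, p-values and group averages of the authors' comparison were not used.

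Estimated counts were rounded to whole numbers and compared with edgeR 4.0.16 (default filter on low counts, TMM, quasi-likelihood test, Benjamini-Hochberg adjustment over all 15787 tested genes) in R 4.3.3, and single genes by an exact permutation test over 70 arrangements. No covariates were used. A count of 0 allows an expected count of up to 3, for counting error only. Alternatives used DESeq2 1.42.0, limma 3.58.1, other scaling and filters, whole counts alone, counts rounded down and each library left out. The edgeR, DESeq2 and limma-voom fits were tested on simulated counts, and the other steps were not. Genes named were testis histone variants, all called genes, the 10 highest by CPM and the H2af and H3f families, with the other tested histone genes added afterwards for completeness. The members and lists were chosen with earlier results of these data known. RefSeq promoters were matched by Entrez ID, and GENCODE M21 transcripts by Entrez ID or, where none matched, by gene symbol. P-values measure the spread between mice.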

Additional observations from a re-analysis of the deposited data

How the results depend on the processing

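H1fnt, Hils1 and Hist1h4a kept their call under every alternative that gave them a value, with log2 fold changes of 1.84 to 2.44, 1.36 to 1.61 and 1.04 to 1.38. Hist1h4a has none when genes with counts that are not whole are left out. The number of histone genes called higher, 3, was 4 in DESeq2, in limma-voom and without WT3, each adding Hist1h2bp, and 2 among genes with whole counts. The number called lower, 1 for all libraries, was 0 with the replicate number as a block and 0 to 2 with each library left out. H2afx had an adjusted p of 0.0657 in the block fit, and without KO2 or WT1 its log2 fold change was -0.31 and -0.33. Replicate numbers did not pair the libraries, as the correlations of same-numbered libraries over genes were -0.06, 0.07, -0.33 and -0.11. Calls of lower genes over the whole table, 230, were the least stable: 131 with DESeq2 size factors, 415 with library size alone, 71 without a filter, 466 and 448 on FPKM with a pseudocount of 1 and 0.1, 28 with the replicate block, and 37 to 356 without single libraries, the lowest without WT1 and the highest without KO4. The causes were not tested. Over 19 named genes, Hist1h2bp and those added for completeness not among them, 351 values kept their side of the threshold, 1 gained a call (H2afv) and 3 lost one (H2afx). Of all these values 20 changed sign, none of them called: 8 of H3f3a, 6 of H2bfm and 2 each of H2afb3, H3f3b and Hist2h2aa1. The 52 histone genes under the filter on low counts were not tested in the main comparison.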
